A study of Mus musculus with 10 samples.

Results

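The choroid plexus genes Ttr, Folr1, Clic6, Otx2, Aqp1, Slc4a5 and Sostdc1 were followed in ribosome footprints of the developing mouse neocortex. They are 7 of the 22373 genes in the footprint table, matched by symbol to their Ensembl identifiers. The set was chosen by its own values, because Ttr and Folr1 rose to embryonic day (E) 14 and collapsed at E15.5. The changes from E12.5 to E14 and from E14 to E15.5 are therefore given as a description of these genes, without a test.

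Ribo-seq counts the mRNA fragments that translating ribosomes protect from nuclease, so that a footprint count reflects both the amount of an mRNA and how many ribosomes it carries. Wild-type CD-1 mice were sampled on 4 embryonic days, E12.5, then E14, then E15.5 and last E17, and on the day of birth (P0), with 2 libraries per stage and no treatment or allele that differed between stages. Each library was a pool of neocortices from embryos or pups of timed matings, with male and female animals together. The tissue was dissected and then lysed whole, so every cell type left on the piece contributed to the counts.

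The choroid plexus is a folded sheet of secretory epithelium around a core of vessels and stroma. In the lateral ventricle it is attached along the medial edge of the cortex, next to the cortical hem, a signalling centre that secretes Wnt and BMP proteins. Its epithelium makes most of the cerebrospinal fluid and moves ions, water, folate, retinol and thyroid hormone between blood and fluid. In bulk tissue, fewer choroid plexus cells and fewer footprints per cell cannot be told apart, and this holds for every difference given here.

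The libraries held between 7544404 and 36129988 footprints, with the lowest total in P0 replicate 1. Levels are given as CPM, the counts per 1000000 of a library size scaled by TMM, a factor that aligns the bulk of genes between libraries. The neocortex marker Neurod6 was high in all 10 libraries, with 113 to 294 CPM. A pair of libraries stood apart. Footprints of 12 genes of intestinal epithelium, such as Fabp2 and Muc13, summed to 1994 counts in E12.5 replicate 1 and 7323 counts in P0 replicate 2, against 0 to 25 counts in each of the other 8. As CPM, this list stood at 109.7 and 174.8 in those libraries and at most at 0.792 elsewhere. Levels are given by library for the members, the closing section gives the counts of calls from E14 to E15.5 without both libraries, and their part in any result was not tested. A stage that loses a library in this way keeps 1, which the fit then takes to vary as the other stages do.

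RefSeq promoter windows (GRCm38.p6) were at hand for Aqp1, Slc4a5 and Otx2 among the 7 genes, and not for Ttr, Folr1, Clic6 and Sostdc1. They are shown as a description, since the shared rise and fall of these genes was fixed by the choice of the set. Printed are the 250 bases before the annotated start, 5′ to 3′ on the gene's strand. They lie for Aqp1 at chr6:55336049-55336298 (plus strand), Slc4a5 at chr6:83237125-83237374 (plus strand), and the Otx2 starts at chr14:48667509-48667758 and chr14:48665110-48665359 (minus strand). Otx2 has 4 annotated starts in the table, of which 2 are printed. Capitals mark matches, on either strand, to TAATCC, the core bound by Otx-type homeodomains, or to GTTGCC, part of the X-box bound by RFX factors. Both motifs were picked after the values of these genes were known, and their letters do not overlap.
Aqp1: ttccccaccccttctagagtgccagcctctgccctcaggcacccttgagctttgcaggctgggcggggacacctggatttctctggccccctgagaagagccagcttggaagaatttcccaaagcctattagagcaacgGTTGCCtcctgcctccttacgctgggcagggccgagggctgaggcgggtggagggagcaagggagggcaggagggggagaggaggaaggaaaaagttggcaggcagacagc
Slc4a5: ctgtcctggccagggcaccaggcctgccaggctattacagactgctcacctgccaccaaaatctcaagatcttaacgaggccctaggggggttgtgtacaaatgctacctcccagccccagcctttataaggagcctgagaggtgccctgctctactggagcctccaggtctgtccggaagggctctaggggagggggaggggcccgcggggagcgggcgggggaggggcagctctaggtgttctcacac
Otx2 at chr14:48667509-48667758: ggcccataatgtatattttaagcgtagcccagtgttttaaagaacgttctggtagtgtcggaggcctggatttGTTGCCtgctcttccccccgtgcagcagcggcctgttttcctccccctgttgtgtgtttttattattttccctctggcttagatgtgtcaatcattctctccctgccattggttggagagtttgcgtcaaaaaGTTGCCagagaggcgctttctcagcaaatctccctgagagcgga
Otx2 at chr14:48665110-48665359: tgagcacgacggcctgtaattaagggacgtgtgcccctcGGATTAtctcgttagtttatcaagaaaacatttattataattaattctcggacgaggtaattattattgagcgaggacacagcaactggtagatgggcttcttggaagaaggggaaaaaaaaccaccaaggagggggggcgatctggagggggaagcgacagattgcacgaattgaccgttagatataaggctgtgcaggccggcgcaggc

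The Otx core was found in 1 of the 6 windows of these 3 genes, at the Otx2 start of the last line, and in 6.25% of all 32851 windows of the same length. It was in none of the 27 windows of 21 other choroid plexus genes. GTTGCC was found for Aqp1 and Otx2, and in 4 of the 21 other choroid plexus genes (Kcne2, Slc4a2, Steap1 and Wfikkn2), against 10.4% of all windows and 11.8% of all genes. A match is a stretch of letters only, and Slc4a5 carried neither in its window.

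Ttr encodes transthyretin, which carries thyroxine and, together with retinol-binding protein, retinol, and is the main protein secreted by choroid plexus epithelium. Ttr (ENSMUSG00000061808) stood at 308.6 and 258 CPM in the E12.5 libraries and at 1079.8 and 1083 CPM at E14. At E15.5 it stood at 12.7 and 9.80 CPM, at E17 at 4.45 and 5.07 CPM, and at P0 at 13.4 and 6.66 CPM. Both E14 libraries lay above both of every other stage, and all 6 libraries from E15.5 on lay far below both E12.5 libraries. The means were 283 ± 35.5 CPM at E12.5, 1081 ± 2.0 CPM at E14 and 11.2 ± 2.04 CPM at E15.5 (SD, n = 2). With the counts of both libraries of a stage added, Ttr was 94.2-fold lower at E15.5 than at E14, with a 95% interval of 87.2 to 102 that covers counting error only.

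Sostdc1, the other secreted protein of the set, binds and blocks BMP and Wnt ligands. Sostdc1 (ENSMUSG00000036169) had 22 counts in each E12.5 library, 77 and 114 in those of E14, then 12 and 5 (E15.5), 26 and 20 (E17), and 9 and 41 (P0). As CPM these were 1.21 and 0.823, 3.40 and 3.61, 0.362 and 0.211, 0.826 and 0.751, and 0.979 and 0.978. It was the only one of the 7 genes whose later libraries came back near its E12.5 level, with a mean of 0.979 CPM at P0 against 1.02 CPM at E12.5. The pooled fall from E14 to E15.5 was 11.8-fold (7.17 to 20.7), the smallest of the 6 genes for which a ratio could be formed.

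Folr1 encodes the folate receptor that carries folate from blood into cerebrospinal fluid. Folr1 (ENSMUSG00000001827) had 153 and 248 counts in the E12.5 libraries and 454 and 803 in those of E14, or 8.42 and 9.27 CPM and then 20.1 and 25.4 CPM. From E15.5 on it was near 0 in most libraries, with 1 and 10 counts at E15.5, 14 and 0 at E17, and 1 and 43 at P0. The replicates differed widely at each of these stages, and the 43 counts came from P0 replicate 2, one of the libraries with intestinal genes. The pooled fall from E14 to E15.5 was 119.9-fold, with a counting interval of 66.8 to 240.9.

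The members Aqp1, Slc4a5 and Clic6 move water and ions. Aqp1 encodes the water channel of the epithelium's fluid-facing membrane. Aqp1 (ENSMUSG00000004655) had 23 and 44 counts in the E12.5 libraries, 65 and 94 in those of E14, then 3 and 0 (E15.5), 3 and 1 (E17), and 0 and 11 (P0). Slc4a5 encodes a sodium bicarbonate cotransporter. Slc4a5 (ENSMUSG00000068323) had the lowest counts of the 7, with 4 and 5 in the E12.5 libraries, 13 and 26 in those of E14, 0 in all 4 libraries of E15.5 and E17, and 1 and 2 at P0. Clic6 belongs to the chloride intracellular channel family. Clic6 (ENSMUSG00000022949) had 65 counts in each E12.5 library, 184 and 228 in those of E14, then 6 and 4 (E15.5), 3 and 4 (E17), and 4 and 3 (P0). For each of these genes the 2 E14 libraries were the highest of the 10 in CPM, and no library from E15.5 on reached the lower E12.5 library. Aqp1 at most reached 0.263 CPM in P0 replicate 2 against 1.27 CPM in the lower E12.5 library. Slc4a5 at most reached 0.109 CPM in P0 replicate 1 against 0.187 CPM in the lower E12.5 library. The pooled fall from E14 to E15.5 was 43.2-fold for Clic6 (23.3 to 90.8) and 55.6-fold for Aqp1 (18.7 to 272.6, on 3 later counts). Slc4a5 was at least 13.6-fold lower, with 3 counts over both E15.5 libraries taken as the limit that a count of 0 allows.

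Otx2 is a homeodomain transcription factor needed to form the choroid plexus, and it is also made in diencephalon and midbrain. Otx2 (ENSMUSG00000021848) had 142 and 160 counts in the E12.5 libraries, 223 and 308 in those of E14, then 7 and 13 (E15.5), 8 and 11 (E17), and 0 and 1 (P0). The E12.5 libraries, at 7.81 and 5.98 CPM, lay nearer to those of E14, at 9.85 and 9.76 CPM, than for any other member. The fitted log2 change from E12.5 to E14 was 0.53 for Otx2, against 0.98 to 1.94 for the other 6 genes. The pooled fall from E14 to E15.5 was 27.9-fold (17.9 to 46.0).

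**Figure D1:**
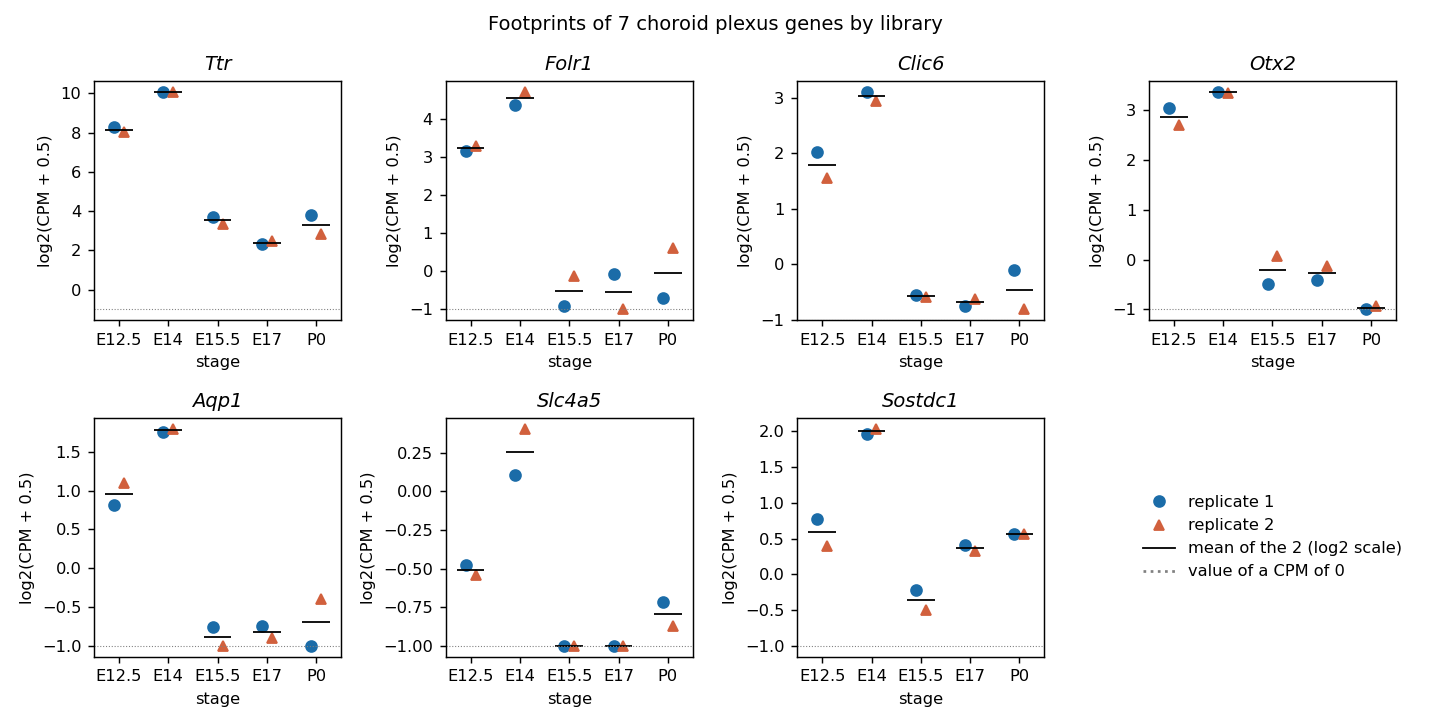
The level of each of the 7 genes is plotted by stage as log2(CPM + 0.5), with circles for replicate 1, triangles for replicate 2 and a bar for their mean; each panel has its own scale. Both E14 libraries are the highest in every panel, and Sostdc1 alone rises again after E15.5 to near its E12.5 level.

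Read together, the 7 genes stood at 331 and 279 CPM in the E12.5 libraries and 1125 and 1132 CPM in those of E14, then at 13.6 and 11.1 CPM (E15.5), 6.16 and 6.42 CPM (E17), and 15.0 and 9.07 CPM (P0). The fitted log2 changes from E14 to E15.5 ran from -7.58 (Folr1, SE 1.20) to -3.51 (Sostdc1, SE 0.35), with a median of -5.35, or -5.31 with Slc4a5 at its bound. All 7 were above 0 from E12.5 to E14, with a median of 1.40 (1.64 with both libraries with intestinal genes left out), and all 7 below 0 from E14 to E15.5, which the choice of the genes fixed. Of the 13484 genes with at least 32 footprints over the 2 libraries of any stage, 0.497% were called higher from E12.5 to E14 and 19.6% lower from E14 to E15.5, where a call needed a limma-voom adjusted p under 0.05 and a fold change past the study's own minimum. All 7 passed this filter, but 4 of them only through E12.5 or E14, and a gene kept by those stages alone had to be lower later.

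The members did not keep their proportions. Ttr held 92.9% of the footprints of the 7 genes at E12.5 (exact 95% interval 92.5 to 93.4), 95.8% at E14 (95.6 to 95.9), 91.5% at E15.5 (89.2 to 93.4) and 75.3% at E17 (70.6 to 79.7). At P0 its share was 89.1% in replicate 1 (82.7 to 93.8) and 73.4% in replicate 2 (68.7 to 77.8), the library with intestinal genes, so that the pooled 77.6% (73.8 to 81.1) rests mostly on that library. The libraries of E12.5 stood at 93.2% and 92.7%, and those of E17 at 72.2% and 78.9%. Sostdc1 went from 0.312% at E14 (0.269 to 0.360) to 12.6% at E17 (9.38 to 16.5). Otx2 went from 2.24% at E12.5 (2.0 to 2.51) to 0.868% at E14 (0.796 to 0.944), while its own mean went from 6.90 to 9.81 CPM. From E15.5 on these shares rest on 365 to 714 footprints per stage, and the intervals cover counting error only.

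**Figure D2:**
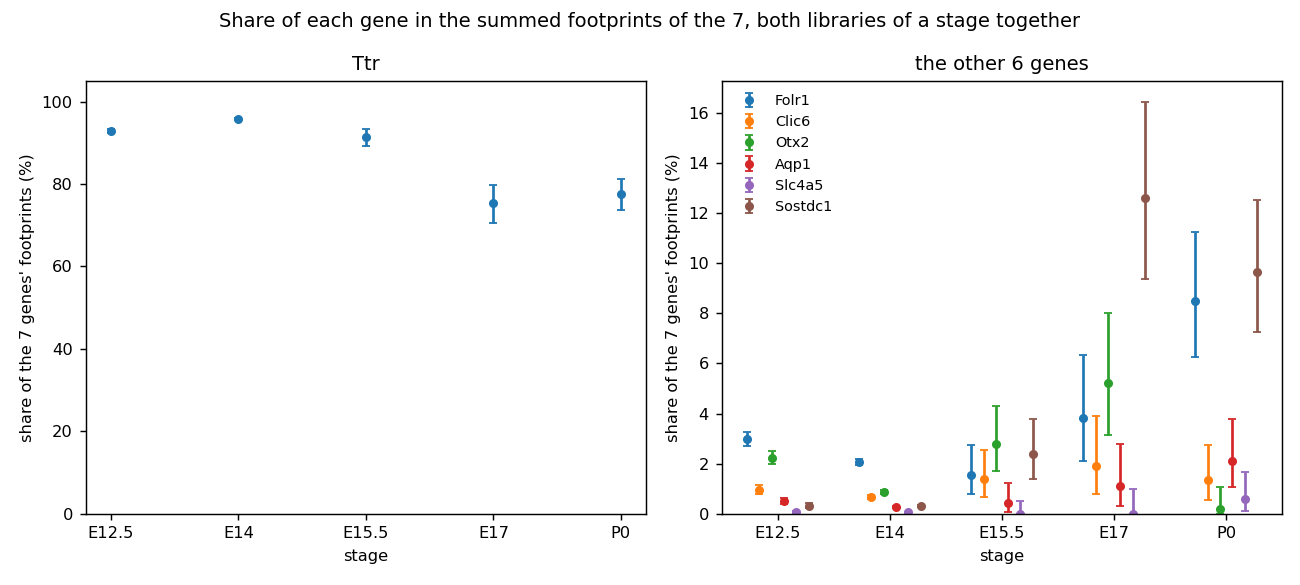
The share of each gene in the summed footprints of the 7 is plotted in percent by stage, for Ttr (left) and for the other 6 genes (right), with both libraries of a stage added and bars for the exact binomial 95% interval. Ttr falls from 95.8% at E14 to 75.3% at E17, where Sostdc1 holds 12.6%.

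After the fall, levels stayed low. From E15.5 to E17 the fitted log2 change was -1.24 for Ttr (SE 0.29) and 1.39 for Sostdc1 (SE 0.38), and the other 5 lay between -0.52 (Clic6) and 0.63 (Aqp1). This step uses the E15.5 libraries that chose the genes, so these values are a description. Over all genes 9.04% were called in either direction.

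The step from E17 to P0 compared no library of the choice and was tested. Its spread was still estimated over all 10 libraries, those of the choice included. Of the 7 members, 4 passed the filter at neither E17 nor P0. No member was called changed by limma-voom, where 9.46% of all genes were called higher and 11.1% lower. Ttr stood 0.85 higher on the log2 scale (SE 0.30, limma-voom adjusted p = 0.0819), with both P0 libraries above both E17 libraries. Otx2 stood at -2.99 (SE 1.09, limma-voom adjusted p = 0.0882), with 1 count at P0 in all. The other 5 had limma-voom adjusted p-values from 0.164 (Slc4a5) to 0.899 (Clic6). At an unadjusted p under 0.05 there were 2 genes, edgeR's quasi-likelihood test called 1 (Otx2) and DESeq2 called 2 (Ttr and Otx2). Without P0 replicate 2, the library with intestinal genes, the log2 change of Ttr was 1.5. P0 was then 1 library, the one with the fewest footprints, and the spread came from the other stages. In that fit Clic6 and Aqp1 turned direction. Aqp1, above 0 with all libraries, went to -0.58 on the log2 scale, and Clic6 went from -0.19 to 1.86, neither called. With both libraries with intestinal genes left out, the log2 change was 1.5 for Ttr and 3.24 for Slc4a5. The latter rests on 1 count at P0 against 0 at E17, and P0 was again 1 library. Members were called in both of these fits, but so were more genes over the whole table than with all libraries. Those calls are therefore not read as a result about the members.

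Within a stage, the pools were compared gene by gene. At E14 the log2 ratio of replicate 1 to replicate 2 ran from -0.52 (Slc4a5) to 0.17 (Clic6) over the 7 genes, and the Ttr counts of 24443 and 34159 came to nearly the same CPM. Folr1 stood lower in replicate 1, with a ratio of -0.34 (counting interval -0.51 to -0.18), where the SD over well counted genes was 0.18. Among the other choroid plexus genes this ratio ran from -0.97 (Htr2c) to 1.04 (Tmem72). At E12.5 replicate 1 was higher for 5 of the 7 genes, with a median of 0.26, and for Ttr the ratio of 0.26 (counting interval 0.21 to 0.31) was near the SD of 0.22 that this ratio had over 4559 well counted genes. At P0, Ttr was higher in replicate 1 by 1.01 on the log2 scale (0.69 to 1.32), where the SD over the well counted genes was 0.53. For Folr1, with only 1 and 43 counts, the same ratio was -3.24 (-8.57 to -0.68). No test between pools was made.

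Most other genes of choroid plexus epithelium were also lower at E15.5 than at E14. From E14 to E15.5, 11 of the 14 tested genes of a list of 22 fell, 1 rose and 2 were not called, with a median log2 change of -3.85 (-3.67 with a gene at 0 set at its bound), against -0.01 over all genes. Over all genes 19.6% were called lower and 16.5% higher, so that 54.4% of calls were lower. Under scaling by total counts this share was 27.3%, and 10 of these 14 were still called lower. Of the 14 genes, 6 passed the filter only through stages before E15.5 and so had to be lower later. Of the other 8, 5 fell and 1 rose, with a median of -2.18. These 8 include Krt8, which passed the filter after E14 only through P0 replicate 2, a library with intestinal genes. It had 288 counts there and 0 in P0 replicate 1. With both libraries with intestinal genes left out, 13 were called lower.

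Kcne2, Kcnj13 and Htr2c passed the filter only at E12.5 and E14, so their values at this step are a description. Kcne2, a potassium channel subunit, went from 35.1 and 34.1 CPM at E14 to 0.482 and 0.338 CPM at E15.5 (log2 change -6.31, SE 0.60). The potassium channel gene Kcnj13 went from 3.40 and 2.03 CPM to 0.271 and 0 CPM (log2 change -4.79, SE 1.22), and Htr2c, a serotonin receptor, from 2.43 and 4.75 CPM to 0.512 and 0.296 CPM (log2 change -3.04). Enpp2, which makes the signalling lipid lysophosphatidic acid, fell by 3.31 (limma-voom adjusted p = 0.000148), and Car12, a carbonic anhydrase, by 2.92. Slc4a2, an anion exchanger, and Igfbp2, a binding protein of insulin-like growth factors that many cells make, fell less, by 1.41 and 1.45. Ecrg4, a secreted peptide precursor, fell by 0.87 (limma-voom adjusted p = 0.0296), a call lost without E15.5 replicate 2 or without either library of E14 or E17, and by edgeR and DESeq2 (adjusted p = 0.114 and 0.253).

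Trpm3, a cation channel gene that neurons also use, went the other way. It stood at 2.87 and 3.49 CPM at E14 and at 4.40 and 4.90 CPM at E15.5 (log2 change 0.53, limma-voom adjusted p = 0.0437), and reached 17.3 and 14.7 CPM at P0. The rise at E15.5 was not called without either library of E14, E15.5 or E17 (adjusted p up to 0.204), nor by DESeq2 (adjusted p = 0.129). Calml4, a calmodulin-like gene that intestinal epithelium also uses, had 780 and 995 counts at E14 and 25 and 0 at E15.5, and was not called (log2 change -7.63, SE 2.96, limma-voom adjusted p = 0.0769). It had 551 and 227 counts at E12.5 and 0 and 260 at P0, the higher level in each pair being in a library with intestinal genes, and with both of these left out it was called lower (limma-voom adjusted p = 0.00113), as it was by edgeR and DESeq2 with all libraries (adjusted p = 0.00608 and 0.0177).

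From E12.5 to E14, only Kcne2 of the 14 genes was called higher (log2 change 1.70, SE 0.25, limma-voom adjusted p = 0.0382), where 0.497% of all genes were called higher and 0.141% lower. Of the 14, 13 had a log2 change above 0, with a median of 1.06, where the median over all genes was near 0. At an unadjusted p under 0.05 there were 8, and edgeR called 0 and DESeq2 2. The number called at this step shifted between the fits that left out 1 library or both libraries with intestinal genes. The number called over all genes shifted the same way. These fits left a stage with 1 library, so their counts are not read as a result about these genes.

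**Figure D3:**
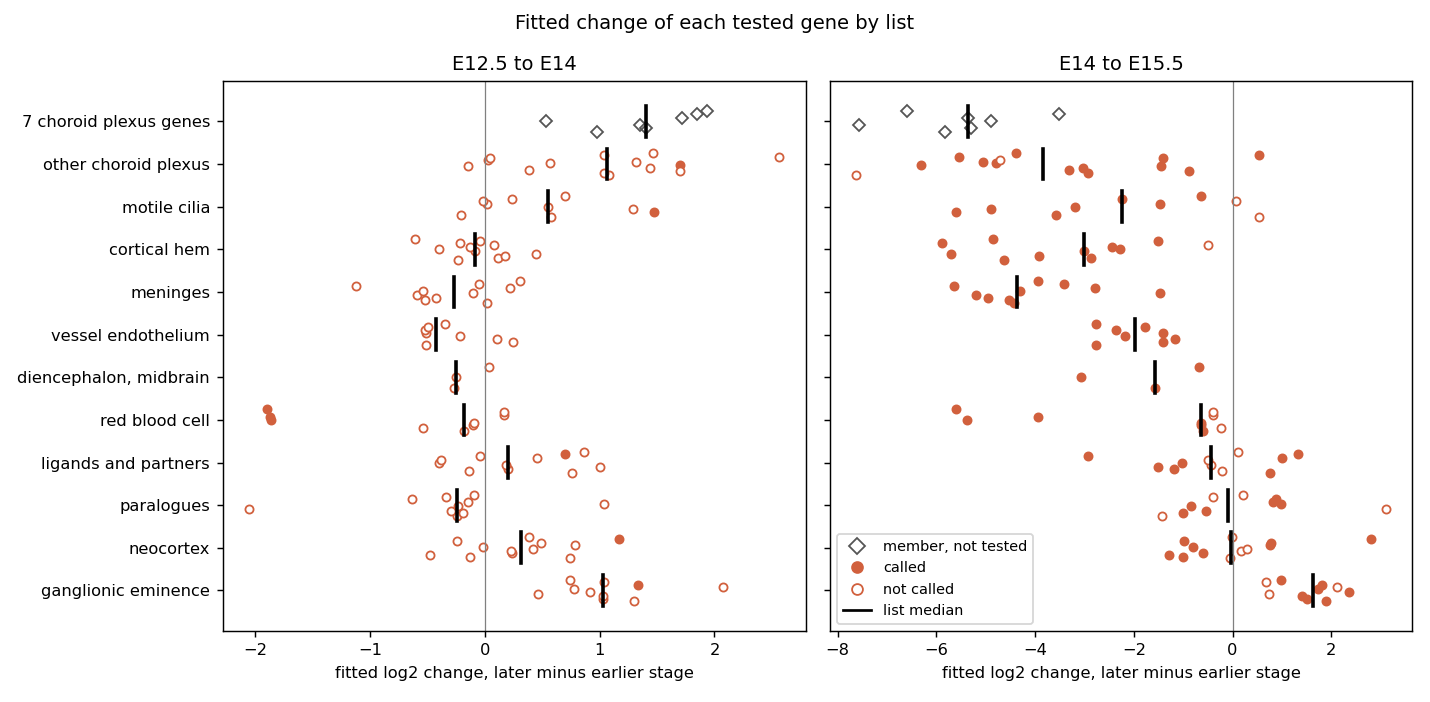
Each point is the fitted log2 change (limma-voom) of a gene that passed the filter, by gene list, from E12.5 to E14 (left) and from E14 to E15.5 (right); filled circles were called, open circles were not, diamonds are the 7 untested members, and black bars are list medians. The members and the other choroid plexus genes lie mostly above 0 on the left and far below 0 on the right, with medians of -5.35 and -3.85, and the cortical hem and meninges lists lie around 0 on the left (medians -0.09 and -0.26) and below 0 on the right (medians -3.01 and -4.36).

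Choroid plexus epithelium carries tufts of motile cilia, so genes of the multiciliated programme were read beside the members. From E14 to E15.5, 7 of 9 tested genes of a list of 12 fell and 2 were not called (median log2 change -2.25), against 19.6% of all genes called lower. Of the 9, 1 passed the filter only through stages before E15.5 and so had to be lower later. Of the other 8, 6 fell, with a median of -1.86. Of the 9, edgeR and DESeq2 each called 6 lower, and scaling by total counts gave 6 lower and 2 higher. Foxj1, the factor that switches on motile cilia genes, went from 3.18 and 3.61 CPM to 0.301 and 0.464 CPM (log2 change -3.19, limma-voom adjusted p = 0.000291). Cfap126 fell by 5.61 and Dynlrb2 by 4.89, while Rfx3, a regulator of cilia genes that was among the 2 not called, lay between 51.5 and 56.1 CPM in these 4 libraries. Its relative Rfx2 fell by 1.47 and Tekt1, a filament of the axoneme, by 0.64. The Rfx2 call was lost by edgeR and DESeq2 (adjusted p = 0.0503 and 0.0781), and that of Tekt1 under scaling by total counts (limma-voom adjusted p = 0.0625). Rfx2 was not called without E14 replicate 2 or either E15.5 library (limma-voom adjusted p = 0.0595 to 0.115), nor Tekt1 without E15.5 replicate 2 (0.0537). Without E15.5 replicate 2, which left that stage with 1 library, the count was lower, as was the number called over all genes.

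At birth several cilia genes rose again. From E17 to P0, 5 of the 9 were called higher and 1 lower, against 9.46% and 11.1% of all genes. Dynlrb2 rose from 0.159 and 0.188 CPM to 2.94 and 4.75 CPM (log2 change 4.47, SE 0.83, limma-voom adjusted p = 0.00895), Cfap126 rose by 2.39 and Foxj1 by 1.58. No member was called at this step, but the difference between the 2 lists was not tested. The count was 4 by edgeR and 3 by DESeq2. It was also lower without P0 replicate 2, without both libraries with intestinal genes, or without either E17 library. Each of these fits left a stage with 1 library, and without either E17 library fewer genes were called over all genes too.

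The cortical hem borders the choroid plexus. From E14 to E15.5, 10 of 11 tested genes of a list of 14 were called lower, with a median log2 change of -3.01, but 8 of the 11 passed the filter only before E15.5 and so had to be lower later. Of the 3 that also passed it at a later stage, 2 fell, where the share called lower over all genes was 19.6%. From E12.5 to E14, limma-voom, edgeR and DESeq2 each called 0 of the 11, as did limma-voom with both libraries with intestinal genes left out, 2 were at an unadjusted p under 0.05, and the median was -0.09. Msx1, a homeobox factor downstream of BMP, went from 4.90 and 4.22 CPM to 0.0603 and 0.0845 CPM (log2 change -5.70), and the log2 change was -4.85 for the ligand Wnt8b, -3.91 for Lmx1a, a factor of the roof plate and hem, and -2.86 for the ligand Bmp7. These 4 genes passed the filter only at E12.5 and E14, so their values are a description. The Wnt agonist Rspo2 fell by 2.43 and the ligand Wnt5a by 1.51. Rspo3, another Wnt agonist, was not called (log2 change -0.50, limma-voom adjusted p = 0.0809), and was called without either P0 library (limma-voom adjusted p = 0.0495 and 0.0498). Summed over the list, the hem genes stood at 34.7 to 38.5 CPM in the 4 libraries before E15.5 and at 6.96 to 11.3 CPM in the 6 later ones.

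Markers of other tissues around the neocortex were also lower at E15.5, where 19.6% of all genes were called lower. All 10 genes of the meninges fell (median log2 change -4.36), of which 6 also passed the filter at a later stage. All 8 vessel genes fell (median -1.98), 7 by edgeR and under scaling by total counts, and 7 of the 8 passed the filter at a later stage. Their summed levels went from 149 to 202 CPM down to 26.0 to 54.2 CPM and from 37.4 to 46.1 CPM down to 10.7 to 21.3 CPM. Dcn, a matrix protein of fibroblasts, stood at 18.1 and 22.8 CPM at E14 and at 0.994 and 1.06 CPM at E15.5, and Col3a1 fell by 5.19 on the log2 scale. Of the red cell list, 6 of 9 tested genes fell (5 under scaling by total counts), with a median log2 change of only -0.64. Of the 8 that also passed the filter at a later stage, 5 fell. Hba-a1 went from 2493 and 2277 CPM at E14 to 1575 and 1487 CPM at E15.5. Part of the list was falling before this step, with 3 of the 9 called lower from E12.5 to E14, against 0.141% of all genes. The globin gene Hbb-y went from a mean of 1318 CPM at E12.5 to 357 CPM at E14 and 7.25 CPM at E15.5. Hbb-bs and Hbb-bt were not called (limma-voom adjusted p = 0.1 and 0.0923). Of the diencephalon and midbrain list, all 3 tested genes fell (2 under scaling by total counts), with Lhx9 at -3.07. Of these 3, 2 also passed the filter at a later stage, and 4 of the list's 10 genes never passed 3 counts in a library. Liver and yolk sac, which also make Ttr, left little trace, with 5 of 8 list genes never past 3 counts in a library and the tested Apoa1 and Apob high only in the libraries with intestinal genes. The part of these tissues in the members' changes was not tested.

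Genes of the ganglionic eminence list moved the other way, and which cells held their footprints was not tested. Of the ganglionic eminence list, 7 of 10 tested genes rose from E14 to E15.5 (median log2 change 1.63), against 16.5% of all genes called higher, and its summed level went from 16 to 40.6 CPM before E15.5 to 124 to 178 CPM after. Of the 12 neocortex genes, 3 rose and 5 fell (5 and 4 under scaling by total counts), against 16.5% and 19.6% of all genes. From E12.5 to E14, when the members' median was 1.40, limma-voom, edgeR and DESeq2 each called 0 of the 10 meninges and 0 of the 8 vessel genes, with 5 and 4 at an unadjusted p under 0.05 and medians of -0.26 and -0.42. With both libraries with intestinal genes left out, limma-voom also called 0 of each. The summed meninges level was nevertheless lower in both E14 libraries, at 149 and 167 CPM, than in both E12.5 libraries, at 202 and 193 CPM.

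**Figure D4:**
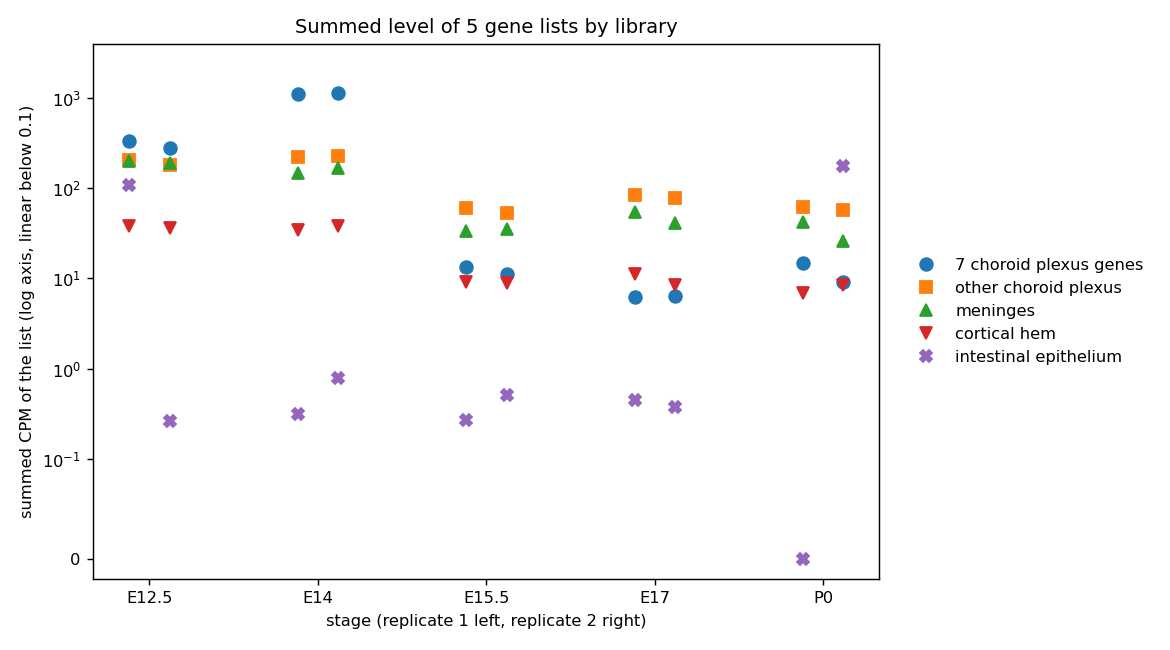
The summed CPM of 5 gene lists is plotted for each of the 10 libraries on a log axis that turns linear below 0.1. The 7 choroid plexus genes peak at E14 and drop to 11.1 to 13.6 CPM at E15.5, the hem list stands at 34.7 to 38.5 CPM and the meninges list at 149 to 202 CPM up to E14, both lower from E15.5 on, and intestinal genes are high in E12.5 replicate 1 and P0 replicate 2 only.

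Of 10 tested paralogues of the members, 3 rose and 3 fell from E14 to E15.5 (4 and 2 under scaling by total counts), with a median log2 change of -0.09. Over all genes 16.5% were called higher and 19.6% lower. Otx1, the relative of Otx2 that cortical progenitors use, went from 10.4 and 11.6 CPM to 6.0 and 6.42 CPM, a pooled fall of 1.80-fold against 27.9-fold for Otx2. Clic1 and Clic4 fell 2.01-fold and 1.46-fold, against 43.2-fold for Clic6. Slc4a8 was not called (limma-voom adjusted p = 0.252). These contrasts between relatives are descriptions, since the members were picked for their fall.

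Genes that handle the cargo of Ttr and Folr1 were also read at this step. Of 11 tested genes for thyroid hormone, retinol and folate, 4 fell and 3 rose from E14 to E15.5, against 19.6% of all genes called lower and 16.5% higher. Those that fell included Stra6, the retinol uptake receptor (log2 change -2.92, limma-voom adjusted p = 7.7e-05), Rbp4 (-1.52), which binds retinol, and Slc19a1 (-1.03), the reduced folate carrier. Those that rose handle thyroid hormone. The receptor Thra went from 61.9 and 60.0 CPM to 145 and 160 CPM (log2 change 1.32), the uptake carrier Slco1c1 rose by 1.00 and the binding protein Crym by 0.76.

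The genes whose pattern was most like the members' were sought among 12285 non-members with a mean of at least 20 counts. Likeness was Pearson's r over the 10 libraries between log2(CPM + 0.5) of a gene and the mean of the 7 members. The closest 8 were Kcne2 (r = 0.989), Msx1 (0.984), Crabp1 (0.977), Ccdc61 (0.971), Pf4 (0.971), Fcgrt (0.969), C130074G19Rik (0.968) and Kcnj13 (0.968). Kcne2 and Kcnj13 are choroid plexus genes and Msx1 a hem gene of the lists above, Crabp1 binds retinoic acid, Pf4 is a chemokine of platelets and some macrophages, and Fcgrt encodes the neonatal Fc receptor. The correlation does not weigh size, since Ccdc61 changed by only -0.74 from E14 to E15.5. The 10 libraries share 5 stages, and with a pseudocount of 0.1 only 4 of the 8 stayed among the closest.

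Among the members themselves, pairwise r over the 10 libraries ran from 0.69 to 0.99 with a median of 0.94 over 21 pairs. The rise to E14 and the fall at E15.5 that chose the set enter these r values, so they are a description. Sostdc1 was the least like the rest, with r = 0.80 to the mean of the other 6, against 0.93 to 0.99 for each of the others.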

How the data were processed

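Ribo-seq libraries of mouse neocortex were counted at 5 stages, 2 pooled libraries each. Per the study's methods, the authors trimmed reads, collapsed duplicates, removed contaminant RNA with Bowtie 2 and aligned with STAR (2.7.0 in the submitters' processing notes), keeping reads that match several places. The deposited values are whole-number footprint counts per gene, not normalized. Reads were aligned to coding transcripts and the genome of GENCODE release M12, and the methods name DeepShape-prime, for the abundance of isoforms, and tximport, for length-corrected sums per gene. Whether the deposited table comes from these steps is not stated.

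Of 22373 identifiers, 22274 matched a symbol. Genes with at least 32 footprints summed over a stage's 2 libraries were kept (13484). TMM scaling (edgeR 4.0.16) and limma-voom (limma 3.58.1, R 4.3.3) were fitted with 1 coefficient per stage over all 10 libraries, two-sided, with Benjamini-Hochberg adjustment over the genes kept. Genes were called past an adjusted p of 0.05 and 1.25-fold, after the study's rule. Pools are the replicates, so p-values measure the spread between pools. Alternatives were edgeR's quasi-likelihood test, DESeq2 1.42.0, total counts, library sizes without histone genes, no filter, quality weights, a replicate block, only the 2 stages compared, and each library left out. The fit without both libraries with intestinal genes, and the intestinal list, were added after seeing the data. Binomial intervals are exact at 95%. The code was tested on simulated counts.

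The members and all gene lists were chosen with earlier results of these data known. Genes named are the 7 members, up to 4 genes per other list with the highest mean CPM, the genes of the choroid plexus, cilia and hem lists called from E14 to E15.5 with a mean of at least 20 counts, and the 8 closest in pattern. Steap1, Wfikkn2, Krt8, Tmem72, Hbb-y, Slc19a1, Rbp4, Stra6 and Slco1c1 were named after their values were seen. Some genes of the lists are not reported here by name.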

Additional observations from a re-analysis of the deposited data

How the results depend on the processing

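Scaling by total counts alone raised the median log2 change of all genes from E14 to E15.5 from -0.01 to 0.29, and the share of calls that were lower went from 54.4% to 27.3% at that step, from 22.1% to 9.09% from E12.5 to E14, and from 53.9% to 36.6% from E17 to P0. From E14 to E15.5 the members' median was -5.35, and -5.06 by total counts, -5.70 by edgeR and -5.86 by DESeq2, with a range of -5.56 to -5.33 over the fits without 1 library. From E12.5 to E14 the members' median of 1.40 was 1.64 with both libraries with intestinal genes left out, and ran from 1.40 to 1.64 without 1 library. From E15.5 to E17 the median of -0.05 ran from -0.49 (without E15.5 replicate 1) to 0.19 (without E15.5 replicate 2).

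From E17 to P0 the members called numbered 0, and 1 by edgeR, 2 by DESeq2 and 1 with no filter. Over all genes, calls in either direction numbered 2767, and 2482, 2224 and 2436 in the same order. Fits that left P0 with 1 library without its replicate 2 also called members, but called more genes over the whole table. Clic6, at -0.19 there, was 0.28 by edgeR, 0.49 by DESeq2, 0.12 with no filter, 0.15 with quality weights, 0.13 with the replicate block, 1.86 with both libraries with intestinal genes left out and -0.69 to 1.86 without 1 library. Aqp1 was -0.57 with both left out and -0.58 to 1.78 without 1 library. Choroid plexus genes called higher from E12.5 to E14 numbered 1, and 0 by edgeR, 2 by DESeq2 and 2 by total counts. They numbered 0 with no filter, 5 with quality weights and 0 with only the 2 stages. Over all genes, calls in either direction at that step numbered 86, and 85, 399, 143, 27, 655 and 8 in the same order. In fits that left a stage with 1 library, both numbers shifted together. Cilia genes called lower from E14 to E15.5 numbered 7, and fewer in some fits without 1 library. Those called higher from E17 to P0 numbered 5, and 3 by DESeq2, 2 with quality weights and 0 with only the 2 stages. Over all genes, calls in either direction from E17 to P0 numbered 2767, and 2224, 698 and 0 in the same order. The cilia count from E17 to P0 was also lower in some fits without 1 library. With both libraries with intestinal genes left out, genes called lower from E14 to E15.5 numbered 13 for the other choroid plexus list, 7 for cilia, 11 for hem, 10 for meninges, 8 for vessels, 8 for red cells (6 with all libraries) and 3 for diencephalon and midbrain, and 8 ganglionic eminence genes were called higher. In that fit 4 paralogues rose and 4 fell, 3 cargo genes rose and 5 fell, and 3 neocortex genes rose and 5 fell. Of the 8 genes closest in pattern, 4 remained with a pseudocount of 0.1. The causes of these shifts were not tested.

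Replicate numbers did not pair the libraries, with correlations of replicate deviations between stages from -0.64 to 0.43. A replicate block took the 1 choroid plexus gene called higher from E12.5 to E14 to 0. It also took the calls over all genes at that step from 86 to 4. Low member counts limit the later stages, where most members have under 50 counts a library.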
